A study of Homo sapiens with 4 samples.

Results

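The zinc finger genes of chromosome 19 were followed in T47D cells treated with the progestin R5020. The members were all genes whose deposited symbol begins with ZNF and a digit and whose locus lies on chromosome 19. The rule used no expression value and found 251 of the 23287 genes of the transcript tables, which carried 410 of 41138 transcripts. Of the 251, 3 were read-through symbols that join neighbouring genes and 6 were named as pseudogenes. They were set beside the 289 numbered ZNF genes of other chromosomes and the 1358 other genes of chromosome 19.

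Most C2H2 zinc finger proteins bind DNA through a row of short, zinc-stabilised fingers. Many also carry a KRAB domain, which binds the co-repressor TRIM28 and through it the histone H3 lysine 9 methyltransferase SETDB1 and HP1 proteins. This machinery silences transposable elements and, in part, other genes. The genes stand in clusters on chromosome 19 that grew by repeated duplication, so that neighbours are often close relatives in sequence.

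T47D is a luminal breast cancer cell line that expresses the progesterone receptor (PR). Cells in hormone-stripped serum received 10 nM R5020, a synthetic progestin that binds PR, or its vehicle ethanol (EtOH), for 3 h before RNA was taken. PR-bound chromatin was taken after 1 h of 10 nM R5020 and sequenced beside input DNA. Per the paper, cells for ChIP spent longer in hormone-stripped serum before harvest than cells for RNA. Each of the 4 samples was 1 library, so no spread between replicates exists and no test between conditions was possible; every difference is one between 2 libraries.

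Expression is in FPKM, a fragment count scaled by transcript length and sequencing depth, as the authors deposited it, summed here over the transcripts of a gene. Changes are log2((FPKM R5020 + 1)/(FPKM EtOH + 1)), so that folds of weakly expressed genes come out too small. A gene was retained when its FPKM reached 1 in either library, and 11018 of the 23287 genes were. The deposited coverage corresponded to about 35151500 reads in EtOH and 36203600 reads in R5020 over the listed transcripts, an estimate and not the sequenced depth. A retained ZNF gene of chromosome 19 had a median of 588 such reads in EtOH and 562 in R5020. The lowest had 70 in its higher library. Luminal markers were present, among them KRT19 at 608 and 477 FPKM, and GATA3 at 253 and 126 FPKM, in EtOH and R5020. KRT8 and KRT18 were listed at 0 in EtOH, where the deposited status says that the estimate failed. Of 6 markers of other cell types, 5 were below FPKM 1 in both libraries and COL1A1 stood at 5.12 and 3.31.

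PR binding sites are the authors' peak calls, each with a score of which higher means stronger evidence over input DNA. Sequences are shown for 3 of the 4 highest-scoring sites in or within 10 kb of a member, since these are among the strongest PR binding near these genes. Each is a stretch of the site on the plus strand of hg19, 5′ to 3′, without annotated untranslated exon sequence. The site of ZNF784 (score 186) spans chr19:56135746-56136315 and covers the gene's start, and its shown stretch chr19:56135974-56136273 lies in no annotated gene. The site of ZNF57 (score 136) spans chr19:2900774-2901349 over the gene's start, and the shown stretch chr19:2901047-2901346 is intronic. The site of ZNF575 (score 114) spans chr19:44030601-44031048, and the shown stretch chr19:44030812-44031048 is intronic both in ETHE1, a gene of mitochondrial sulphide metabolism, and in an extended annotated form of ZNF575. Capitals mark GGGCGG (the GC box of Sp1-type factors), ATTGG or its reverse CCAAT (the NF-Y box) and AGAACA or its reverse TGTTCT (a hexamer that forms an arm of the consensus PR element).
ZNF784: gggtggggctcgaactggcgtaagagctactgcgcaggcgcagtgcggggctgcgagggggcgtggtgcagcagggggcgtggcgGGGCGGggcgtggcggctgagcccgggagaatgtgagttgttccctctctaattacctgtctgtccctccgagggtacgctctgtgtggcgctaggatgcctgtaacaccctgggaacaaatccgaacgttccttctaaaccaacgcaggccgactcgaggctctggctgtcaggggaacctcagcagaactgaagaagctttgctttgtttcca
ZNF57: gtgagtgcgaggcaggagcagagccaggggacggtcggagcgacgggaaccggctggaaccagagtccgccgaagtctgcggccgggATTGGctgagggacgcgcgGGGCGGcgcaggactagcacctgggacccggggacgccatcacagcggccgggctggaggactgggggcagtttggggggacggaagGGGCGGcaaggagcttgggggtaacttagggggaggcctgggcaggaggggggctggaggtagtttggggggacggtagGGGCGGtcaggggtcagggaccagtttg
ZNF575: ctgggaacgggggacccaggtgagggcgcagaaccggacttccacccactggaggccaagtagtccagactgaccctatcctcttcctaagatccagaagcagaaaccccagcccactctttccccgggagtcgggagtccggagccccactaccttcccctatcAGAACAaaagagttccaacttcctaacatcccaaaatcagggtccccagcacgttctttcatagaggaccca
None of these 3 stretches held the full palindrome GNACANNNTGTNC. The hexamer was in that of ZNF575 alone, and the ZNF784 and ZNF57 stretches held 1 and 3 copies of GGGCGG.

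Most of these genes were transcribed, at low levels. Of the 251, 182 (72.5%) were retained, close to the 71.6% of ZNF genes elsewhere and above the 42.8% of other genes of chromosome 19. The other 69 (27.5%, 95% Wilson interval 22.3 to 33.3, counting error only) were below FPKM 1 in both libraries, against 53.0% of all other genes. Listed at 0 in both were 9 members (3.59%), against 26.6% of all other genes. These 9 were ZNF177, ZNF224, ZNF534, ZNF536, ZNF560, ZNF565 and the read-through symbols ZNF559-ZNF177, ZNF625-ZNF20 and ZNF816-ZNF321P.

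The levels of the retained genes lay in a narrow band. The median was 2.03 FPKM in both libraries, against 5.18 in EtOH and 5.42 in R5020 for all other retained genes and 2.65 and 2.72 for ZNF genes of other chromosomes. By mean FPKM, 90 were under 2, 80 between 2 and 5, and 12 between 5 and 10, and none reached 10, while 29.3% of other retained genes did. Reads that map to several places were discarded by the authors, so near-identical family members may be listed too low in both libraries; the size of this was not tested.

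By the mean of both libraries the most abundant member was ZNF146, whose protein consists of little but zinc fingers, with 8.94 FPKM in EtOH and 11.0 in R5020. ZNF83 had 10.3 and 9.61 FPKM, and ZNF552 had 10.3 and 9.04. These 3 were the members that reached FPKM 10 in either library. ZNF226 followed with 8.98 and 9.21, ZNF626 with 6.02 and 9.99, and ZNF700 with 8.37 and 7.57 FPKM. The 10 highest members held 16.6% of the members' summed FPKM in EtOH and 17.2% in R5020, so no few genes carried the total. ZNF91, which represses SVA retrotransposons, stood at 3.58 and 3.0 FPKM, and ZNF93, which represses LINE-1 elements, at 1.39 and 2.02.

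The summed level hardly moved, from 490 FPKM in EtOH to 511 in R5020 (log2 ratio 0.06). The log2 ratio of the sums was 0.09 for all other genes and 0.10 for numbered ZNF genes of other chromosomes. Across all 251 genes the levels in the 2 libraries had Pearson's r = 0.95 on the log2(FPKM + 1) scale and Spearman's rho = 0.94, a description across genes that share the 2 libraries. In R5020, 82 of the 182 retained genes were lower (45.1%, Wilson interval 38.0 to 52.3) and 100 were higher. Among all retained genes 49.1% were lower. The median change was 0.03 (interval from order statistics -0.03 to 0.08), against 0.01 for all other retained genes.

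The share of genes lower in R5020 was also taken among genes of like expression. Other retained genes weighted to the members' classes of mean FPKM were lower in 54.0%, with a median change of -0.03. In the class under 2 FPKM, 45.6% of members and 58.2% of other genes were lower, and in the class from 2 to 5 FPKM 45% and 50.8%. Weighted instead to the members' transcript length, other genes were lower in 47.6%, with a median of 0.02. The interval of the members' share covers the latter value and leaves out the former; genes are not replicates, and these shares compare 1 pair of libraries.

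The other genes of chromosome 19 leaned the other way. Of their 581 retained, 73.0% were lower in R5020, with a median change of -0.15, and their summed FPKM went from 6123 to 5678. Transcript GC content moved with this. It had a median of 42.1% in the members, 47.5% in all other retained genes and 59.7% in the other genes of chromosome 19. The share lower in R5020 among all other retained genes was 32.4% below 40% GC and 68.8% at 60% GC and more. Among the members it was 32.1% of the 53 genes below 40% GC and 47.1% of the 87 between 40% and 45%, where all other genes had 38.6%. Weighted to the members' GC classes, the other genes of chromosome 19 were lower in 49.0%, numbered ZNF genes elsewhere in 44.6% and all other genes in 40.1%. The 49.0% rests mostly on few genes, since the classes below 40% and from 40% to 45% GC held only 5 and 9 other genes of chromosome 19. With GC weighting the members' 45.1% was above that of all other genes, the opposite side from the expression-weighted comparison. The part of GC content in either library's values was not tested, and the weighting was chosen after the data were seen.

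**Figure D1:**
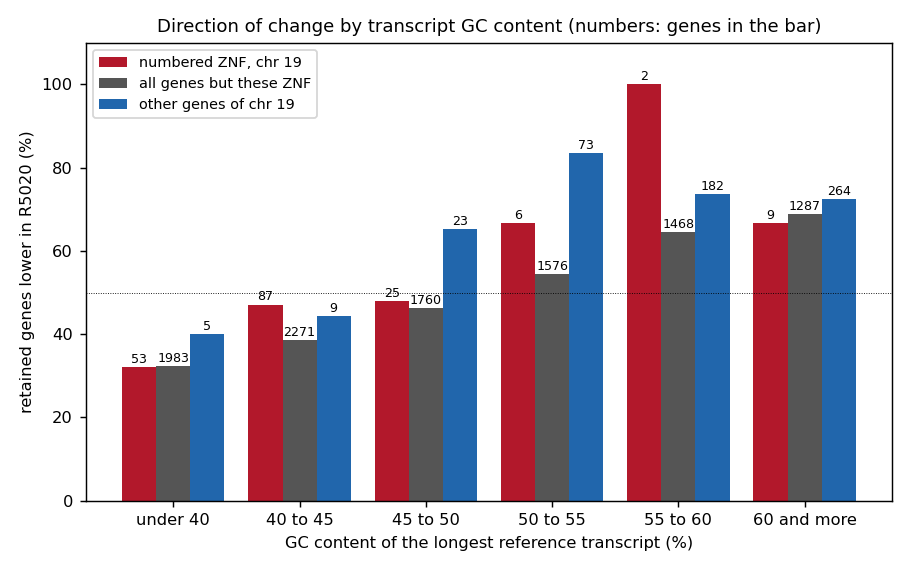
Percent of retained genes lower in R5020 (vertical axis) by GC content of the longest reference transcript (horizontal axis, percent), with the number of genes above each bar. The bars rise with GC content for all other genes, from 32.4% to 68.8%; 140 of the 182 ZNF genes of chromosome 19 lie in the 2 lowest classes, and their 3 highest classes hold only 6, 2 and 9 genes.

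Few members moved far. With 1 added to each FPKM (a pseudocount), 6 retained members (3.30%) were at least 1.5-fold higher in R5020, against 7.67% of all retained genes. By the same measure 2 (1.1%) were lower, against 4.14%. In either direction the share was 4.4% for members, 11.8% over all retained genes, 11.8% weighted to the members' FPKM classes and 10.8% weighted to their GC classes. Numbered ZNF genes of other chromosomes were close to the members, with 4.35% higher, 0.966% lower and 5.31% in either direction. Within 1.2-fold of equality lay 137 members (75.3%), against 66.7% of numbered ZNF genes elsewhere, 64.7% of other retained genes and 62.8% of these weighted to the members' FPKM. The middle 50% of members spanned -0.11 to 0.16, and that of other genes -0.17 to 0.19. By class of mean FPKM its width was 0.28 in members and 0.40 in other genes under 2, and 0.24 and 0.37 from 2 to 5. Among the 12 members from 5 to 10 FPKM it was wider, 0.47 against 0.35. There 8.33% were up and 8.33% down by 1.5-fold or more, against 7.39% and 3.36% of other genes.

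**Figure D2:**
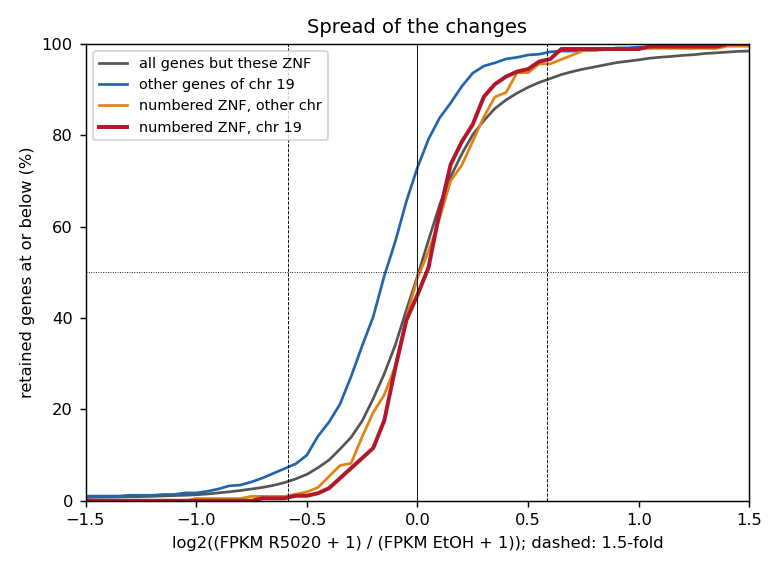
Percent of retained genes at or below each log2 change (vertical axis) against that change (horizontal axis), with dashed lines at 1.5-fold. The curve of the ZNF genes of chromosome 19 rises steeply around 0 (75.3% within 1.2-fold), and the curve of other genes of chromosome 19 lies to the left, with a median of -0.15.

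Of the 6 that were higher, 4 were below FPKM 1 in EtOH and so were retained only through the library in which they were high. ZNF812, annotated as a pseudogene in the reference used here, had 0.930 FPKM in EtOH and 3.94 in R5020 (log2 change 1.36, about 165 and 690 reads). ZNF57 had 0.966 and 3.07 FPKM (1.05, about 176 and 551 reads). With the pseudocount, these 2 were the only retained members that were at least 2-fold higher. Without it, the FPKM ratio also passed 2 for ZNF563 (2.22), ZNF724P (2.12) and ZNF784 (2.43), all below FPKM 1 in EtOH. ZNF563 had 0.811 and 1.80 FPKM (0.63), and ZNF724P had 0.872 and 1.85 (0.61) on about 31 and 70 reads, the fewest of any retained member. The remaining pair was expressed in both libraries. ZNF626 had 6.02 and 9.99 FPKM (0.65). ZNF761 had 3.32 and 5.74 FPKM (0.64), and LOC147804, whose locus overlaps it, had 3.72 and 5.61; whether they share reads was not tested. The 2 that were lower were ZNF823, with 2.32 FPKM in EtOH and 1.0 in R5020 (-0.73), and ZNF580, with 8.81 and 5.49 (-0.60).

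**Figure D3:**
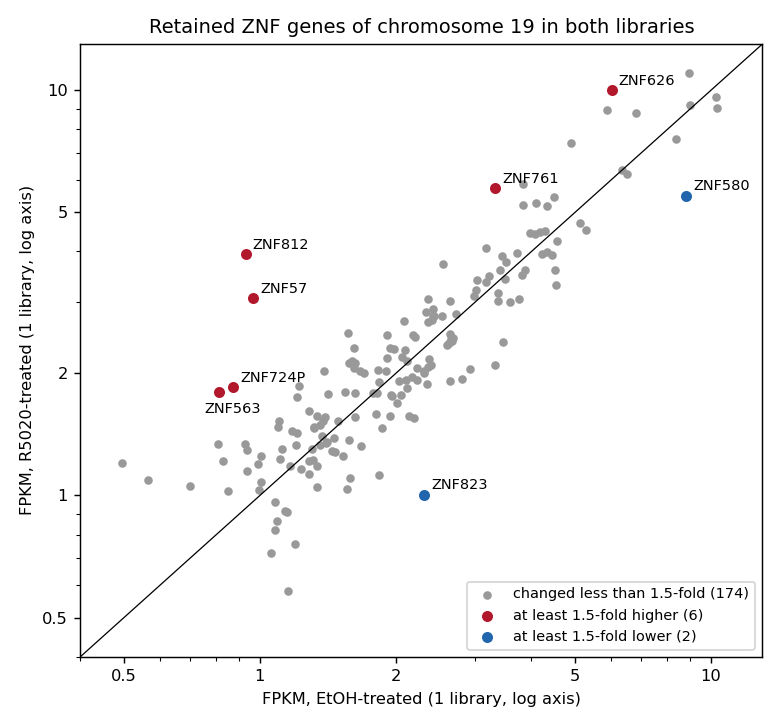
FPKM of each of the 182 retained ZNF genes of chromosome 19 in the R5020 library (vertical) against the EtOH library (horizontal), both on log axes, with the line of equality. Most points lie along the line; the 6 genes that were higher and the 2 that were lower by at least 1.5-fold on the scale with a pseudocount of 1 are coloured and named.

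Among the 159 members with FPKM of at least 1 in both libraries, the 12 largest rises ran from ZNF626 down to ZNF562. After ZNF626 and ZNF761 came ZNF440, with 5.87 and 8.94 FPKM (0.53), and ZNF121, with 4.89 and 7.41 (0.51). ZNF460 had 3.83 and 5.86 FPKM (0.50), and ZNF737 had 1.56 and 2.52 (0.46). With the pseudocount, all of these lay under the 1.5-fold threshold except the first pair. Without it, ZNF440, ZNF121, ZNF460 and ZNF737 passed it as well, and so did ZNF486. ZNF85, ZNF486, ZNF561, ZNF93, ZNF551 and ZNF562 differed by 0.33 to 0.41 on the log2 scale, ZNF562 from the highest level, 6.81 to 8.80 FPKM.

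The 12 largest falls were of the same order. ZNF350, known as ZBRK1, a partner of BRCA1 in repression, had 3.32 FPKM in EtOH and 2.10 in R5020 (-0.48). ZNF613 had 1.84 and 1.12 FPKM (-0.42), and ZNF433 had 3.47 and 2.39 (-0.40). ZNF558, ZNF329, ZNF321P, ZNF358, ZNF441, ZNF793 and ZNF702P differed by -0.30 to -0.38. Of the 12, only ZNF823 and ZNF580 passed 1.5-fold with the pseudocount. Without it, ZNF350 (FPKM ratio 0.633) and ZNF613 (0.609) passed it as well. For ZNF613, a transcript listed at 0.582 FPKM in EtOH was at 0 in R5020, while its other transcript had 1.26 and 1.12 FPKM. In RNA from a whole culture, fewer cells with a transcript and less of it per cell cannot be told apart.

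For genes with a single transcript the files give an interval of each FPKM. Of 118 such retained members, the interval was higher in R5020 without overlap for 22 (18.6%), against 22.6% of all such genes, and lower for 11 (9.32%), against 16.3%. The deposited value lay inside its own interval in both libraries for only 35 of the 118, so these intervals are a loose guide, and they hold no variation between cultures.

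Along the chromosome the members fell into 16 groups when split at gaps over 1 Mb, and 7 groups of at least 10 members held 230 of the 251. The largest, at the end of the long arm (chr19:55987699-58992597), held 60 members, 42 of them retained. There 25 were higher and 17 lower, and the summed level was 121 FPKM in both libraries. The group at chr19:52074531-54083523 held 42 members, of which 35 were retained, 14 were higher and 21 lower, with a median change of -0.08. The group at chr19:19779663-24312654, which ends near the centromere and includes ZNF91 and ZNF93, held 34 members, 26 of them retained. In it 19 were higher and 7 lower, with a median of 0.14, and the summed FPKM went from 65.3 to 77.7. The difference between these groups was not tested.

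Runs of neighbouring genes had the same direction. In the group that ends near the centromere, all retained members from ZNF14 to ZNF708 were higher in R5020. Their changes ran from 0.02 (ZNF90) to 0.65 (ZNF626). A shorter run of 4 follows, and both runs were picked out after the values were seen. ZNF121, ZNF561, ZNF562 and ZNF812 are consecutive members of the group at chr19:7069471-9879410, all on the minus strand, and all 4 were higher in R5020, with changes of 0.51, 0.36, 0.33 and 1.36. The summed FPKM of that group of 17 went from 36.8 to 44.8. The 24 other retained genes within its span had a median change of -0.24 and 17 of them were lower. Of all other retained genes of chromosome 19, 73.0% were lower, with a median of -0.15. Over the chromosome, 106 of 169 neighbouring pairs of retained members (62.7%) had the same direction, against 64.9% of neighbouring pairs of other retained genes of chromosome 19 and 58.9% of such pairs over all chromosomes.

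**Figure D4:**
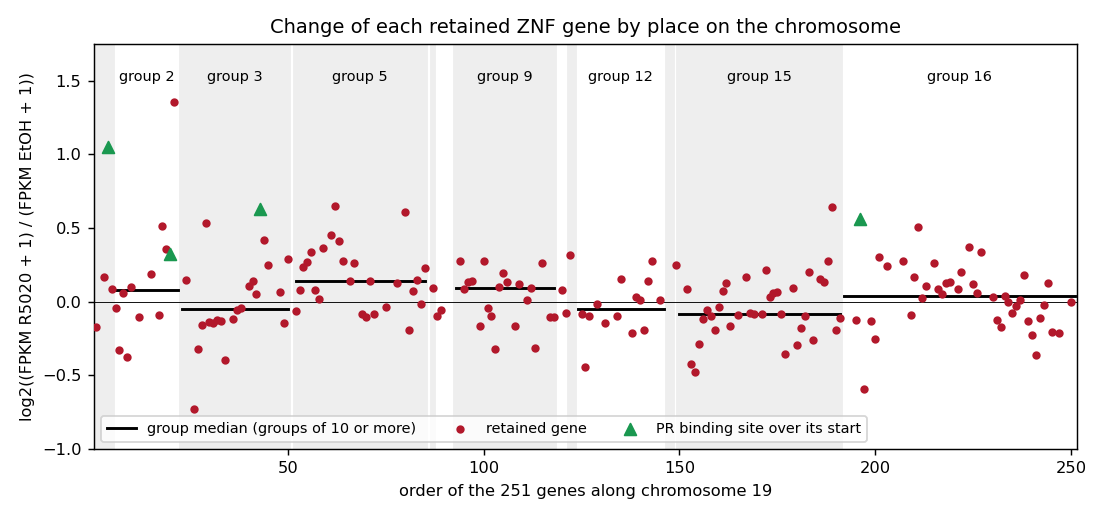
Log2 change (vertical axis) of each retained ZNF gene against its order among the 251 genes of chromosome 19 (horizontal axis), with groups in alternating shade and black lines at the median of groups of at least 10 members. The median of group 5 is 0.14 and that of group 15 is -0.08; triangles are the 4 genes with a PR binding site over their start, which all lie above 0.

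Called PR binding sites were sparse around these genes. The authors kept only uniquely mapped ChIP reads, so sites in near-identical stretches may be missing, and the size of this was not tested. A site lay in or within 10 kb of 21 members (8.37%, Wilson interval 5.54 to 12.5), against 27.9% of all genes, 24.8% of ZNF genes elsewhere and 24.0% of other genes of chromosome 19. The gap remained in every class of gene length. Under 10 kb it was small against other genes of chromosome 19, 14.9% against 17.2%. Weighted to the members' length classes, the shares were 22.4% for ZNF genes elsewhere, 26.8% for other genes of chromosome 19 and 27.3% for all other genes. Per Mb of locus with its flanks there were 2.50 sites for members (23 sites in 9.19 Mb), 5.75 for ZNF genes elsewhere, 7.53 for other genes of chromosome 19 and 5.47 for all other genes. Transcribed members were no richer, with 2.12 sites per Mb, against 10.3 for other retained genes of chromosome 19. The whole chromosome held 306 of the 11181 sites.

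**Figure D5:**
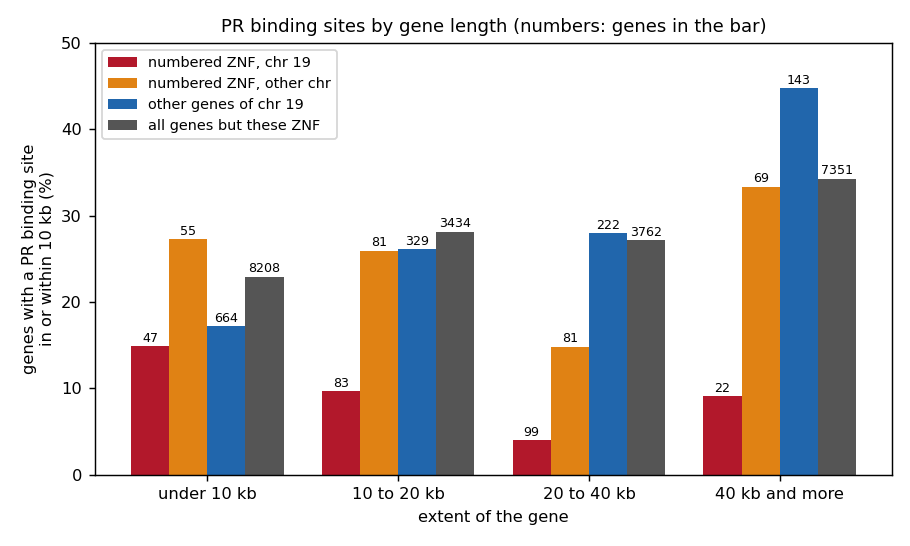
Percent of genes with a PR binding site in or within 10 kb (vertical axis) by extent of the gene (horizontal axis), with the number of genes above each bar. The bar of ZNF genes of chromosome 19 is the lowest in each length class, from 4.04% at 20 to 40 kb to 14.9% under 10 kb.

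The sites that were present scored much as others did. Their median score was 82.2, against 74.5 over all sites, and 5 of the 23 (21.7%) had a score of at least 100, against 16.3% of all sites. The highest was that of ZNF784, at 186, where the highest over the genome was 1965. The palindrome was in the central 300 bases of 1 of the 23 (4.35%), against 1.89% of all sites, and that 1 was the weaker site, upstream of ZNF57 (score 60.9). The hexamer AGAACA, which also counts where it is part of the palindrome, was in 3 (13%), against 17.7% of all sites, with both strands searched. These 3 were the sites of ZNF91 and ZNF507 and the one upstream of ZNF57. The hexamer shown for ZNF575 lies outside the central 300 bases of its site and is not among them. CCAAT was in 7 (30.4%), against 25.3% of all sites, and GGGCGG in 8 (34.8%), against 24.1%. Over the 306 sites of chromosome 19 the hexamer was in 12.4%, CCAAT in 20.9% and GGGCGG in 37.9%.

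A site over a transcription start was found for 4 members (1.59%), against 2.82% of all genes with a known strand. All 4 were higher in R5020. ZNF784 had 0.494 FPKM in EtOH and 1.2 in R5020 (0.56), ZNF57 had 0.966 and 3.07 (1.05), ZNF563 had 0.811 and 1.80 (0.63) and ZNF562 had 6.81 and 8.80 (0.33). The first 3 were retained only through R5020, so that they had to be higher. Of 413 other retained genes with a site over a start, 54.0% were higher, 11.9% were up and 5.33% were down by 1.5-fold or more. Of the 10 retained members with a site elsewhere within 10 kb, 4 were higher, and of the 168 without a site, 92 were (54.8%).

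The promoters of ZNF57, ZNF562 and ZNF563, whose starts these sites cover, are printed for their boxes, as the 250 bases before the start from RefSeq (GRCh38.p14), on the gene's strand. Capitals mark GGGCGG or its reverse CCGCCC and CCAAT or its reverse ATTGG. They are chr19:2900678-2900927 for ZNF57 (plus strand), chr19:9675101-9675350 for ZNF562 (minus strand) and chr19:12333634-12333883 for ZNF563 (minus strand).
ZNF57: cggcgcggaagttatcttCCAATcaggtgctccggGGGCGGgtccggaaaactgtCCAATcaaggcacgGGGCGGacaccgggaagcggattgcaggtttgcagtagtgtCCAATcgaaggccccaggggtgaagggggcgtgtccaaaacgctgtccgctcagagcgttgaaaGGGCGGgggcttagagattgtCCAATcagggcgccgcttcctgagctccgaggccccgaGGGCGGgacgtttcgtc
ZNF562: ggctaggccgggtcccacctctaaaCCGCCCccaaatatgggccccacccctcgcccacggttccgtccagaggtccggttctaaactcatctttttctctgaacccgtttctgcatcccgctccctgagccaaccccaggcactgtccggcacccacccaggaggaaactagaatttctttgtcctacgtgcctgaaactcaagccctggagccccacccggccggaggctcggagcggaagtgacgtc
ZNF563: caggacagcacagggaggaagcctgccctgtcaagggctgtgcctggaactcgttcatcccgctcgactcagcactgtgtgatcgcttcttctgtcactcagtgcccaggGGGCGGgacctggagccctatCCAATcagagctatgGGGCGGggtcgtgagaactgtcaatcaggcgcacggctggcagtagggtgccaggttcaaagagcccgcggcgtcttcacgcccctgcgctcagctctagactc
The ZNF57 promoter held 4 copies of each box, that of ZNF563 2 of GGGCGG and 1 of CCAAT, and that of ZNF562 1 of GGGCGG. None held the hexamer or the palindrome.

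A RefSeq promoter of 300 bases (250 before and 50 after the start) was matched for 214 of the 251 members. CCAAT was in 53.3% of them, against 35.7% of all promoters, and GGGCGG in 67.3%, against 44.6%. Promoters of numbered ZNF genes elsewhere shared these traits, with CCAAT in 44.3%, GGGCGG in 59.0%, the hexamer in 6.13%, a median GC content of 62.3% and a median of 23 CpG. The members' promoters held the hexamer in 10.3%, against 14.9% of all promoters, and the palindrome in 0, against 0.388%. Their median GC content was 60%, against 58.3%, and the median number of CpG was 20, against 14. CCAAT was about as frequent in retained members (54.7%) as in those below FPKM 1 (49.1%).

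Members near the strongest sites differed in direction and level. ZNF865, 5839 bases from the strong ZNF784 site, had 1.58 and 1.37 FPKM (-0.12), in contrast to ZNF784. ZNF580, 16.1 kb from it, was among the 2 lower genes. ZNF560, named for the score of its site, was listed at 0 in both libraries. ZNF575 stood at 0.0778 and 0.165 FPKM. ZNF444, a SCAN-domain member with a site of score 105 in its locus, had 4.50 and 3.60 FPKM (-0.26). ZNF83 (score 91.6) had 10.3 and 9.61, ZNF235 (87.0) had 0.993 and 1.19, ZNF324B (98.6) had 0.561 and 0.793, and ZNF175 (85.8) had 0.756 and 0.606 FPKM. ZNF812, the member with the greatest rise, had its nearest site 15 kb away.

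The proteins differed in their parts. A coding sequence was found for 242 members, and 240 of these held at least 1 C2H2 finger pattern, with a median of 12 and a maximum of 39. A strict pattern of the KRAB A box was found in 165. Of these, 127 (77.0%) were retained, 74 higher and 53 lower, with a median change of 0.06. Of the 77 without it, 50 (64.9%) were retained, 24 higher and 26 lower, with a median of -0.03. PR binding sites lay in or within 10 kb of 9 genes with the pattern (5.45%) and of 12 genes without it (15.6%). These differences were not tested. Genes that the strict pattern missed may still carry a KRAB domain, so the 77 are not a group without KRAB. The number of fingers and the change had Spearman's rho = -0.02 across 177 retained members, a description across genes.

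TRIM28, SETDB1 and other genes of repressive chromatin, most of which are not direct partners of the KRAB domain, were also taken as a list. Of 23 listed genes 22 were retained, 11 higher and 11 lower, with a median of 0.01. By at least 1.5-fold 1 was higher and 0 lower, where the shares over all retained genes were 7.67% and 4.14%. TRIM28 had 8.58 FPKM in EtOH and 8.54 in R5020, and SETDB1 had 4.82 and 4.43. The gene past the threshold was UHRF1, which couples DNA methylation to replication, with 6.84 and 10.9 FPKM (0.60). SUV39H2 and SUV39H1, histone H3 lysine 9 methyltransferases, had 6.75 and 10.1 (0.52) and 2.71 and 3.93 FPKM (0.41). ATF7IP, a partner of SETDB1, had 4.85 and 3.31 (-0.44). Of 19 C2H2 genes of chromosome 19 with other names (such as ZFP, ZSCAN and ZBTB genes), 8 were retained, 3 higher and 5 lower, none past 1.5-fold, with a median of -0.17.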

How the data were processed

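RNA of 1 R5020 and 1 EtOH culture and PR-bound and input DNA were sequenced as 50 bp reads. Trimmomatic (trimming), TopHat2 (alignment to hg19, reads with several positions discarded) and Cufflinks gave the transcript FPKM that the authors deposited; the deposited tables also hold coverage and intervals per transcript. ChIP reads were aligned with Bowtie 1.1.2, per the submitters' processing notes, and only uniquely mapped read pairs were kept. The authors called PR sites with MACS against input and deposited a score per site. Near-identical genes lose multiply mapped reads; strandedness of counting is not given in the sources used here.

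FPKM was summed by gene symbol. Reads were estimated as coverage times transcript length over read length. Genes reaching FPKM 1 in either library were retained, and the pseudocount was 1. With 1 library per condition no test was run; the 1.5-fold threshold is used without a p-value. Weighted shares average other genes' shares over classes of FPKM, length or GC by the members' counts. Site distances run from the nearest edge of the gene's extent. Annotation was GENCODE release 44 on GRCh37 (the hg19 assembly); promoters came from RefSeq on GRCh38.p14. C2H2 patterns had 2 to 4 residues between cysteines, 12 to the first histidine and 3 to 5 between histidines in the translated longest coding sequence. Named genes were the 12 greatest rises and 12 greatest falls with FPKM of at least 1 in both, the 6 highest, all past 1.5-fold, and the 10 with the highest site scores; ZNF91, ZNF93, the listed zeros and others were added after their values were seen. The sequence of 1 of the 4 highest-scoring sites is not reported here. Members and lists were chosen with earlier results of these data known. Calculations used Python 3.11.15, pandas 2.3.3, numpy 2.4.6 and scipy 1.17.1, and functions were tested on simulated data.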

Additional observations from a re-analysis of the deposited data

How the results depend on the processing

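Of 35 recomputed values, 23 stayed close to those reported, 12 moved and 0 changed direction. The number of members past the threshold upward was 2 at 2-fold, 2 with FPKM of at least 1 required in both conditions and 13 with a pseudocount of 0.1; downward it was 0 at 2-fold and 6 with a pseudocount of 0.1. With that pseudocount 10.4% of members and 17.2% of other genes had changed at least 1.5-fold. The share of members below the expression threshold was 5.58% at FPKM 0.1 and 3.59% when only genes listed at 0 counted. The share with a PR binding site was 5.18% for overlap of the locus alone, 21.1% within 50 kb and 2.39% for sites with a score of at least 100; over all genes these were 18.3%, 46.2% and 7.09%. The log2 ratio of the summed FPKM was 0.0487 after rescaling R5020 to a median log2 ratio of 0 and 0.0763 with the highest transcript of each gene. No paired analysis was possible because each condition was 1 library and the labels carry no replicate number. Culture, library and treatment cannot be told apart, and the share of other genes lower in R5020, against which the members were read, depends on weighting by FPKM or GC content.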
